A study of Mus musculus with 4 samples.

Results

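The regions described are the H4K16ac islands of Sirt1-deficient (MT) mouse liver that had no wild type (WT) island in their neighbourhood. They were chosen by position alone from the deposited island lists. An island of the MT list was selected when no island of the WT list lay within 10000 bp of it, measured edge to edge on the same chromosome. These remote MT islands numbered 5347 of the 28377 islands in the MT list, or 18.8% (95% Wilson interval, 18.4 to 19.3), and both lists together held 54604 islands. Because the calls in both lists chose these islands, their number, reads and lengths are given as a description without a test.

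Acetylation of lysine 16 on histone H4 (H4K16ac) loosens the packing of nucleosomes and is found at open, transcribed chromatin. SIRT1 is an NAD-dependent deacetylase that removes acetyl groups from histones, H4K16 among them, and from many other proteins. In liver it takes part in the control of circadian transcription and of lipid and glucose metabolism.

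The study sequenced chromatin immunoprecipitated with an antibody to H4K16ac (ChIP) and the same kind of chromatin without immunoprecipitation (input) from liver. It describes more than a single pair of mice for this assay, and the lists of 1 MT and 1 WT mouse were analysed here. Both mice were 3 months old and of a mixed 129/FVB/Black Swiss background, and the MT mouse carried a targeted deletion in Sirt1. By the paper, the mutant mice of this assay were males and comparisons were kept within a sex. The MT mouse lacked SIRT1 in all tissues, so effects within hepatocytes and effects that come through other organs cannot be told apart. Each island is a stretch of 200-bp windows, joined over gaps of up to 400 bp, in which ChIP reads exceeded input reads at a false discovery rate of 0.001.

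The 4 libraries analysed came from 1 mouse per genotype, so the differences could not be checked against replicates and p-values were not computed. Intervals are at the 95% level and cover counting error only. The lists do not give the total reads of a library. Over islands that overlapped between the lists, input reads per kb were 1.09 times and ChIP reads per kb 1.04 times as high in MT as in WT. The MT list was the longer one, with 1.08 times as many islands and 1.25 times the covered length of the WT list. No genome or annotation of the build of the lists (mm8) was used, and the genes and sequences of the islands were not analysed here.

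The other MT islands served as the comparison. Of these, 16042 shared at least 1 bp with a WT island (56.5% of the list) and 6988 had a WT island within 10000 bp but did not overlap it (24.6%), called near islands here. The remote islands held less of the signal than of the island number. They covered 12.2 Mb, which was 14.0% of the length covered by all MT islands, and carried 346727 ChIP reads (11.9% of the list) and 176408 input reads (13.1%).

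The remote islands were small. Their length ran from 200 to 15800 bp with a median of 2000 bp and quartiles of 1400 and 2800 bp. The near islands had the same median, while the overlapping islands had a median of 3000 bp and reached 74800 bp. Of the remote islands, 643 (12.0%) were at most 1000 bp long, against 11.4% of the near, 6.65% of the overlapping and 8.84% of all MT islands. At the other end, 209 remote islands (3.91%) were 5000 bp or longer, against 5.27% of the near and 21.7% of the overlapping islands. A length of 10000 bp was reached by 10 remote (0.187%), 11 near (0.157%) and 519 overlapping islands (3.24%), or 1.90% of all MT islands.

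The number of ChIP reads followed the same order. A remote island held from 18 to 491 ChIP reads, with a median of 55 and quartiles of 43 and 75. The median was 59 in near islands and 97 in overlapping islands, whose quartiles of 63 and 155 left little of their range in common with the middle of the remote islands. At least 100 ChIP reads were found in 607 remote islands (11.4%), against 14.9% of the near, 48.6% of the overlapping and 33.3% of all MT islands. Strong islands were few among remote and near islands alike. At 200 ChIP reads or more there were 48 remote (0.898%) and 93 near islands (1.33%). The overlapping islands had 2517 (15.7%), and the share over all MT islands was 9.37%.

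Input reads differed less. A remote island held from 1 to 295 input reads with a median of 27 and quartiles of 19 and 40, against medians of 29 in near and 43 in overlapping islands. Once divided by island length, input was almost level across the groups, at a median of 14.2 reads per kb in remote, 14.6 in near and 15 in overlapping islands. The ChIP density showed a wider step between overlapping islands, at 34 reads per kb, and the remote islands, at 28.6, with near islands at 29.3. No remote island was without input reads, and 144 of them (2.69%) had fewer than 10.

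**Figure D1:**
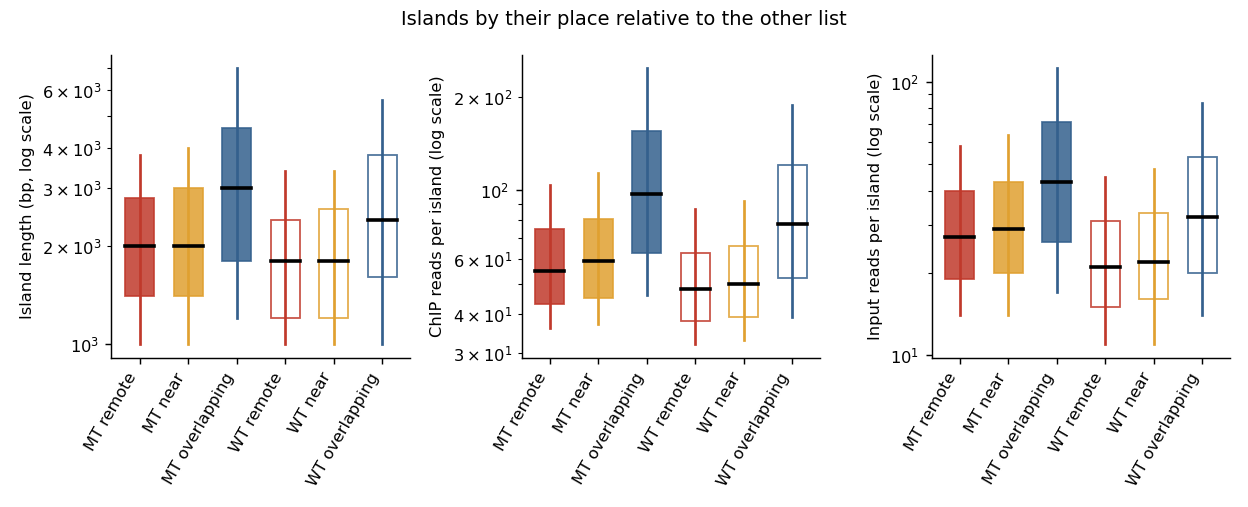
Island length in bp, ChIP reads and input reads per island (all on log scales) for islands of the MT list (filled) and of the WT list (open) by their place relative to the other list; boxes span the quartiles, bars mark the medians and lines reach the 10th and 90th percentiles. The remote and near MT islands share a median length of 2000 bp, and the overlapping MT islands lie higher in all 3 panels.

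The ratio of ChIP to input reads is used here without scaling for library size, so that it can be compared between islands of a list but not directly between the lists. Its median in remote islands was 2, with quartiles of 1.80 and 2.35 and a range from 1.30 to 20. Near islands had the same median of 2 and overlapping islands one of 2.26. Summed over islands, the remote islands had 1.97 ChIP reads per input read and the near islands 1.96, against 2.26 in the overlapping islands. By this measure the remote islands were set apart from the overlapping islands and not from the near ones.

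A ratio of at least 2 was reached by 61.3% of all MT islands. Among the remote islands 2785 reached it, or 52.1% (50.7 to 53.4), which was below that background, while the near islands stood at 52.3% and the overlapping islands at 68.2%. A ratio of at least 4 was found in 136 remote islands (2.54%), against 2.62% of the near, 5.60% of the overlapping and 4.29% of all MT islands.

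The ratio fell with island length in every group, so it was also compared within classes of length. Among islands of 200 to 1000 bp the median ratio was 2.4 in remote and 2.78 in overlapping islands. The medians were 2.09 and 2.37 at 1200 to 2000 bp and 1.86 and 2.2 at 2200 to 4000 bp. Above 4000 bp the remote islands had a median of 1.65 and the overlapping islands one of 2.17, the widest step of the 4 classes. The near islands lay close to the remote islands in every class, at 2.5, 2.11, 1.86 and 1.69. In the class above 4000 bp, the median remote island held 136 ChIP reads and 81 input reads, and the median overlapping island 201 and 92. The lower ratio of remote islands was thus present in every class of length. The class above 4000 bp was not matched for length, since remote islands reached 15800 bp and overlapping islands 74800 bp. Its reads per island therefore include a difference in length. Per kb, its medians were 26.97 ChIP and 16.04 input reads in remote islands, against 33.61 and 15.71 in overlapping islands. By that measure ChIP reads were lower in the remote islands and input reads slightly higher.

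**Figure D2:**
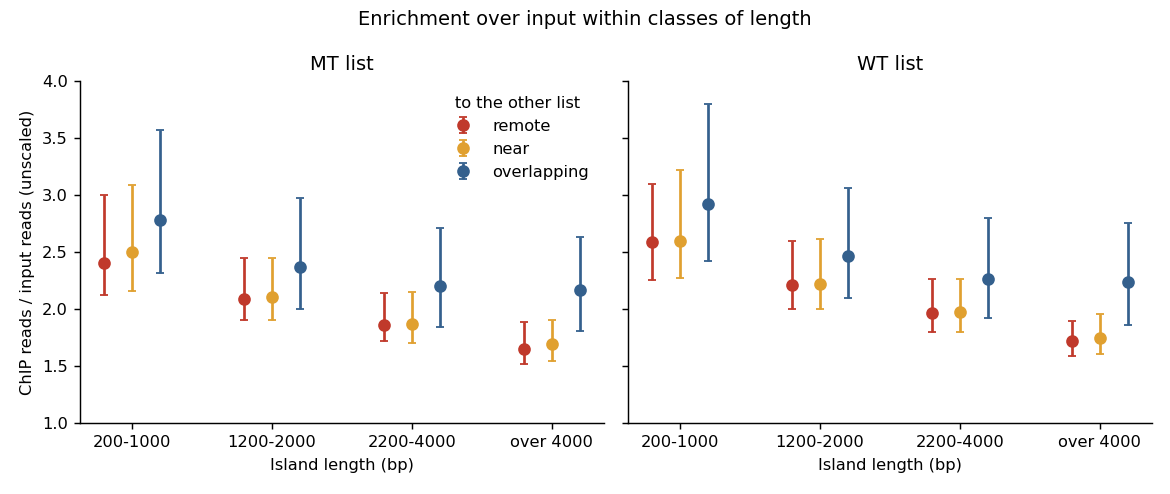
Median ratio of ChIP to input reads, not scaled for library size, in 4 classes of island length (bp) for remote, near and overlapping islands of each list; lines span the quartiles. In the MT panel the remote islands fall from 2.4 in the shortest to 1.65 in the longest class and lie under the overlapping islands in each.

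The share of MT islands that were remote fell steeply with their ChIP reads. Of the 6575 MT islands under 50 ChIP reads, 2056 were remote (31.3%). The share was 21.7% at 50 to 99 reads, 9.54% at 100 to 149 and 5.22% at 150 to 199. It reached 2.35% (38 of 1619) at 200 to 299 reads and 0.962% (10 of 1039) at 300 reads or more. The WT list showed the same order for its own remote islands, from 26.7% under 50 reads to 0.566% (3 of 530) at 300 or more. The length of an island gave a similar gradient, with 25.6% of MT islands of up to 1000 bp and 7.06% of those above 4000 bp being remote.

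Islands on either side of the limit were alike. The 60 islands just inside the limit, at 10200 bp from WT, had a median length of 2500 bp, 62 ChIP reads and 30.5 input reads. The 61 islands just outside it, at 10000 bp, had a median length of 2400 bp, 65 ChIP reads and 33 input reads.

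The remote islands lay between 10200 and 8435000 bp from the nearest WT island, with a median of 25200 bp and quartiles of 15600 and 49200 bp. Of the 5347 islands, 2057 (38.5%) were within 20000 bp of WT and 1978 (37.0%) between 20000 and 50000 bp. A further 760 lay between 50000 and 100000 bp, and 203 lay beyond 200000 bp. Islands farther from WT held fewer reads. The median ChIP reads per island were 57 at 10 to 20 kb, 55 at 20 to 50 kb, 54 at 50 to 100 kb and 46 beyond 500000 bp. The median input reads went from 28 to 20.5 and the median length from 2000 to 1800 bp between the first and the last of these bands. The median ratio went from 1.97 to 2.2.

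The mirror set, WT islands with no MT island within 10000 bp, held 4239 of 26227 WT islands (16.2%, 15.7 to 16.6). The remote MT islands were 1.26 times as many (exact interval, 1.21 to 1.31), against a ratio of 1.08 for the lists as a whole. They covered 1.46 times the length of the remote WT islands and held 1.48 times their ChIP reads and 1.60 times their input reads. Over the whole lists these ratios were 1.25, 1.29 and 1.37. A remote WT island was smaller, with a median length of 1800 bp, 48 ChIP reads and 21 input reads. The same held for the whole WT list, with medians of 2200 bp, 63 ChIP and 27 input reads. The whole MT list had medians of 2400 bp, 74 and 35. In the WT list, where the same ratio may stand for another enrichment, 69.4% of its remote islands and 76.2% of its overlapping islands had at least 2 ChIP reads per input read.

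The excess of remote MT over remote WT islands did not hold under every selection of islands. When islands of both lists were first required to have at least 2 ChIP reads per input read, 4165 remote MT islands faced 5453 remote WT islands, a ratio of 0.764 (0.733 to 0.795), although the same minimum need not mean the same enrichment in both lists. When the MT list was reduced to as many islands as the WT list by ChIP reads, the numbers were 4654 and 4708, a ratio of 0.989 (0.949 to 1.03). With at least 50 ChIP reads required in both lists the ratio was 1.93. How the lengths of the lists and the depths of the libraries enter the count of remote islands was not tested, and the direction of the MT to WT comparison cannot be read apart from that selection.

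The MT excess was also larger at short distances. At 10 to 20 kb from the other list there were 2057 MT and 1481 WT islands, a ratio of 1.39 (1.30 to 1.49). The ratio was 1.30 (1.22 to 1.39) at 20 to 50 kb, 1.18 (1.06 to 1.31) at 50 to 100 kb and 1.12 (0.954 to 1.30) at 100 to 200 kb. Beyond 200 kb there were 203 MT and 282 WT islands, a ratio of 0.720 (0.598 to 0.865), which turned to 1.58 (1.33 to 1.88) when at least 50 ChIP reads were required in both lists. With equal list sizes by ChIP reads it was 0.498 (0.409 to 0.605). The order of the lists in these far gaps therefore changed with the selection of islands.

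Counted against the genome available at each distance, MT islands outside WT islands thinned out with distance from WT beyond the nearest 2 kb. Their density, by the distance of the island centre, was 14.7 per Mb within 2 kb, 29.0 at 2 to 5 kb, 13.1 ± 0.272 (Poisson SE) at 10 to 20 kb, 2.85 at 50 to 100 kb and 0.325 ± 0.0272 at 200000 to 500000 bp. The WT islands had 12.8 per Mb within 2 kb and fell from 19.7 at 2 to 5 kb to 9.57 ± 0.236, 2.47 and 0.463 ± 0.0323 over the bands named for MT. Remote islands of either list were thus concentrated in the surroundings of islands of the other list, even outside 10000 bp.

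**Figure D3:**
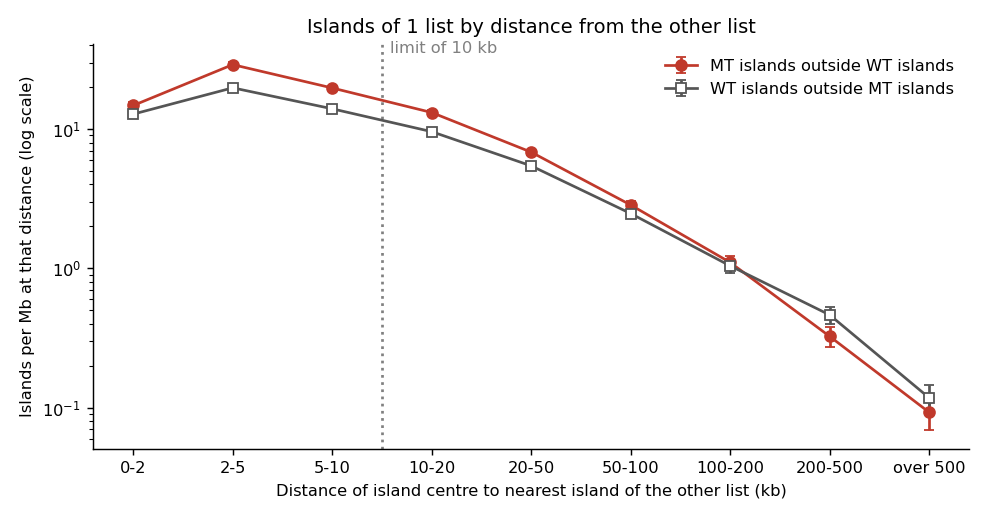
Islands per Mb of genome (log scale) by the distance of their centre in kb to the nearest island of the other list, for MT (filled) and WT (open) islands; error bars are 2 times the Poisson SE and the dotted line marks the 10-kb limit. The MT islands stand at 14.7 per Mb within 2 kb and fall from 29.0 at 2 to 5 kb to 0.325 at 200000 to 500000 bp.

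A WT gap has to be at least 20600 bp long to hold a remote MT island. There were 10733 such gaps among the 26207 between neighbouring WT islands, and 3280 of them (30.6%) held at least 1 remote MT island. The share rose from 14.6% in gaps of 20.6 to 50 kb to 36.7% at 50 to 100 kb and 44.3% at 100 to 200 kb, and was 48.2% above 1 Mb. Per usable Mb, which is the gap without its first and last 10000 bp, the order was the opposite, from 14.1 remote islands in the shortest to 0.379 in the longest gaps. A long gap was therefore more likely to hold a remote island but was far emptier.

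Many remote islands shared a WT gap with others. Taking as a run all remote MT islands with no WT island between them, whatever their spacing, 2089 stood alone and 3258 (60.9%, 59.6 to 62.2) lay in 1204 runs of 2 or more. Runs of 3 or more held 1826 islands (34.2%) and runs of 5 or more held 492 (9.20%) in 84 runs. The largest run had 14 islands. In the mirror set 57.5% (56.0 to 59.0) of the remote WT islands were in runs of 2 or more. Runs of 3 or more held 29.1% (27.7 to 30.4) of them, against an MT interval of 32.9 to 35.4, and runs of 5 or more 8.66%. The MT shares were thus somewhat higher, with intervals that did not meet at 2 or more and at 3 or more. Long gaps make such sharing more likely, and no expected share was computed. The islands of large runs were like the single ones, with a median of 58 ChIP reads and a ratio of 2.05 in runs of 5 or more against 54 and 1.97 in single islands.

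Their spacing was wide. The nearest MT island of any kind was at a median of 14000 bp from a remote island, against 2800 bp from a near or an overlapping island. An MT neighbour within 10000 bp was found for 39.3% of the remote islands and for 73.1% of the overlapping ones. The rule itself sets part of this spacing, since no MT island that overlaps WT can lie within 10000 bp of a remote one unless it reaches beyond the WT island. To the nearest other remote island the median was 38800 bp, with 30.8% within 10000 bp. The remote WT islands were sparser, at medians of 18800 bp to any WT island and 60400 bp to another remote one.

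In bins of 1 Mb, remote MT islands were found in 1574 of the 1962 bins that held any island. A bin with any had a median of 3, and the 418 bins with 5 or more held 2828 of them (52.9%). Remote WT islands were found in 1275 of the 1574 bins, or 81.0%, which was close to the 77.3% of all bins with an island that held one. The share of MT islands that were remote fell with the number of WT islands in the bin, from 36.3% in bins with 1 to 5 WT islands to 8.83% in bins with over 40. Their number per bin rose instead, from 1.09 to 4.44. Bins with no WT island at all held only 64 remote MT islands (1.20%).

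The bin with the most remote MT islands was chr2:5000001-6000000. Of its 38 MT islands 26 were remote, while it held 9 WT islands of which 1 was remote. The next bins, chr6:144000001-145000000 and chr8:96000001-97000000, had 15 and 14 remote MT islands, against 3 and 1 remote WT islands.

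The chromosome 2 bin contained the longest run and the next one beside it. The run of 14 islands spanned chr2:5005001-5467200 in a WT gap of 499400 bp. Its islands were 800 to 5800 bp long and held 31 to 158 ChIP reads each, 856 in all against 452 input reads, a ratio of 1.89. They were unevenly placed, since 1 island with 80 ChIP and 24 input reads lay near the left end of the gap and 9 of the 14 lay within chr2:5371201-5467200. The strongest, chr2:5435601-5441400, had 158 ChIP and 108 input reads, a ratio of only 1.46, while the last island, chr2:5466201-5467200, had 32 and 9.

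The run of 9 islands at chr2:5500601-5565200 was denser. It held 1077 ChIP and 615 input reads over a span of 64600 bp, in a WT gap of 101400 bp. Its islands held 45 to 269 ChIP reads, and the strongest, chr2:5551401-5559200, had 269 ChIP and 127 input reads over 7800 bp. The only WT island between both runs, chr2:5480601-5483600, had 92 ChIP and 40 input reads and overlapped an MT island. Together the 23 islands of these runs held 1933 ChIP reads and 1067 input reads.

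**Figure D4:**
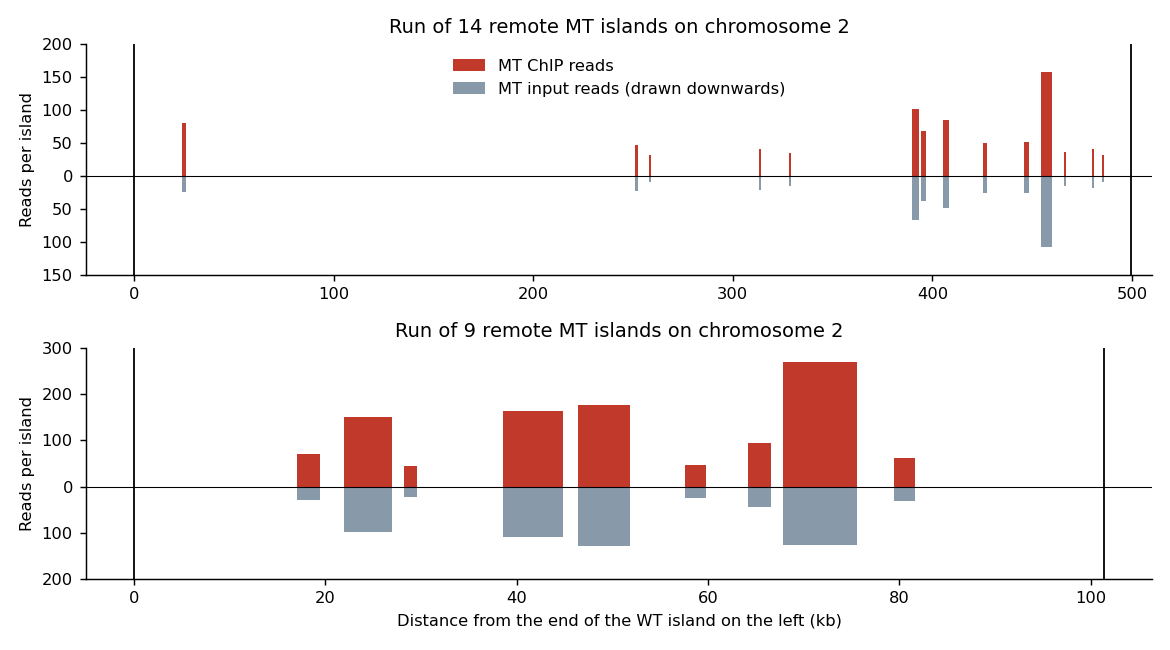
ChIP reads (upwards) and input reads (downwards) of each remote MT island in the runs of 14 and of 9 islands on chromosome 2, against the distance in kb from the end of the WT island on the left; bar width is island length to scale and vertical lines mark the edges of the flanking WT islands. ChIP reads per island range from 31 to 158 in the upper and from 45 to 269 in the lower run.

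The other long runs lay on chromosomes 1, 9 and 6. A run of 9 islands at chr1:196326801-196453600 covered 40200 bp with its islands and had 1020 ChIP and 628 input reads, a ratio of 1.62. A run of 8 at chr9:70627801-70696000 had 982 and 502, a ratio of 1.96, and a run of 8 at chr6:144013601-144138800 had 715 and 309, a ratio of 2.31. In all, 5 runs had 8 islands, and these last were taken from them for their ChIP reads. The remote WT islands also reached a run of 14, at chr10:7725401-8210200, with 870 ChIP and 370 input reads.

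The remote island with the most ChIP reads was chr12:105391601-105405600. It was 14000 bp long with 491 ChIP and 236 input reads, a ratio of 2.08 (exact interval, 1.78 to 2.44). It lay next to the limit, at 10400 bp from a WT island of 31 ChIP and 15 input reads. The longest remote island, chr6:94558201-94574000, was 15800 bp long and had 430 ChIP and 295 input reads, a ratio of 1.46 (1.25 to 1.70), at 25800 bp from WT. Its WT neighbour was itself strong, with 351 ChIP and 107 input reads over 10000 bp.

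The third was chr1:91380401-91392600, with 419 ChIP and 257 input reads and a ratio of 1.63, at 87200 bp from WT. On chromosome 4, chr4:106512001-106524600 had 367 and 232 reads and chr4:148235001-148244000 had 342 and 164. The latter had the highest ratio of the 10 strongest remote islands, 2.09, and lay 84400 bp from WT within a run of 6. The island chr9:70627801-70637800, with 328 and 159 reads, opened the run of 8 on that chromosome.

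The remaining strong islands were chr6:121058201-121068800 with 315 ChIP and 170 input reads, chr6:90689401-90696400 with 309 and 151, chr17:29433401-29444600 with 306 and 220, and chr4:69723001-69734200 with 304 and 233. The last had the lowest ratio of the 10, 1.30 (1.10 to 1.55). Of the 10 islands, 6 lay on chromosomes 4 and 6, 4 lay within 20000 bp of WT and 4 had a ratio of at least 2. The 5 longest remote islands were among them. The largest remote islands thus carried many input reads along with their ChIP reads.

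The highest ratios were found elsewhere, in islands of 800 to 2600 bp. Among islands with at least 10 input reads, the first was chr1:31017001-31018400 with 62 ChIP and 11 input reads, a ratio of 5.64 (2.94 to 11.9). It was followed by chr3:14677001-14678600 with 56 and 10 reads, chr2:69685201-69687800 with 83 and 15, chr5:50347401-50348200 with 58 and 11, and chr7:89814801-89816400 with 78 and 15. Their ratios, from 5.2 to 5.64, rest on 10 to 15 input reads each and could not be ordered within their intervals.

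Of the named islands farthest from WT, all but chr16:72867801-72870800 held fewer ChIP reads than the median remote island, which had 55. A pair on the X chromosome, chrX:82029601-82030200 and chrX:82032201-82033200, had 35 ChIP reads each and 13 and 15 input reads, at 8435000 and 8432000 bp from the nearest WT island. Next was chr5:58701001-58702400 with 39 and 18 reads, at 4197000 bp. Then came chr16:72867801-72870800 with 64 and 36 reads and chr16:72714401-72715000 with 28 and 11, at 2629600 and 2476200 bp. The latter pair belonged to a single run of 6 islands.

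Remote islands were found on all 20 chromosomes of the lists. On the 19 autosomes their share of MT islands ran from 15.6% on chromosome 11 to 21.4% on chromosome 1, around 18.8% for all autosomes together. The interval lay above that value on chromosomes 1 (19.7 to 23.3) and 9 (20.8%, 18.9 to 22.9) and below it on chromosomes 11 (14.1 to 17.3) and 13 (16.5%, 14.6 to 18.5). On the other 15 autosomes the interval included it.

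The share was higher on the X chromosome in both lists. It carried 142 MT islands, of which 49 were remote, or 34.5% (27.2 to 42.6), and 126 WT islands, of which 35 were remote, or 27.8% (20.7 to 36.2). With at least 50 ChIP reads required in both lists, 27.2% (18.7 to 37.7) of the MT islands of the X were remote, an interval that includes the 23.9% of all MT islands under that minimum. The X islands were few for its size, with 0.315 remote MT islands per usable Mb of WT gap against 2.63 on the autosomes. Counts and reads were not scaled for the number of X copies in males. The remote MT islands of the X were also shorter, at a median of 1400 bp with 41 ChIP and 16 input reads.

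Remote MT islands outnumbered remote WT islands on 19 of 20 chromosomes, and the interval of the ratio lay above 1 on 12. The ratio was highest on chromosome 16, with 218 MT and 127 WT islands (1.72, 1.37 to 2.15), followed by chromosome 9, with 317 and 196 (1.62, 1.35 to 1.94). The exception was chromosome 12, with 211 and 216 (0.977, 0.804 to 1.19). These counts carry the same dependence on the selection of islands as the total.

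**Figure D5:**
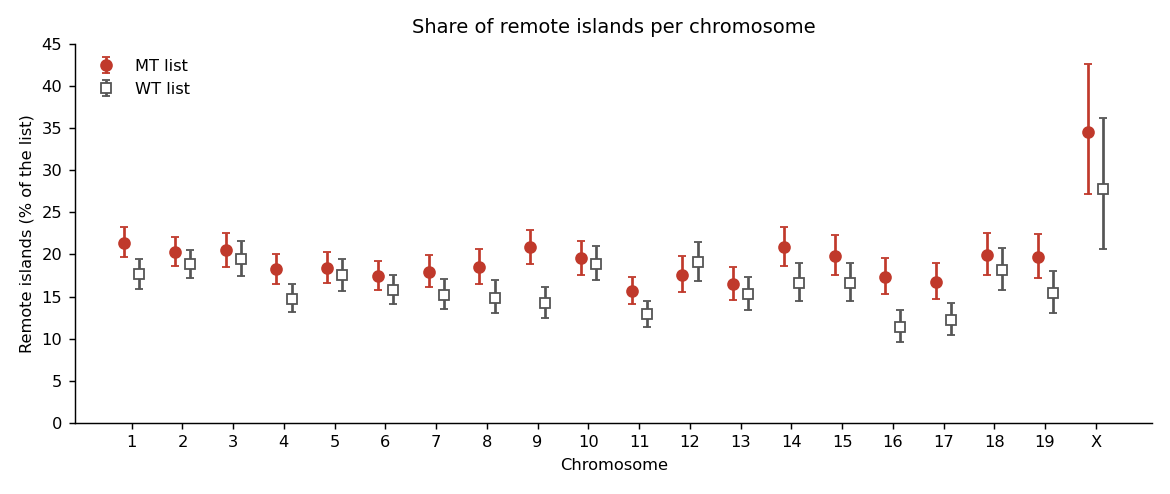
Percent of the islands of each chromosome that are remote from the other list, for MT (filled) and WT (open), with 95% Wilson intervals. Autosomes of the MT list lie between 15.6 and 21.4%, and the X chromosome at 34.5%.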

How the data were processed

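H4K16ac ChIP and input libraries of liver from 1 MT and 1 WT mouse were analysed. Per the submitters' processing notes, Bowtie 0.12.7, SICER 1.03 and build mm8 were used. The deposited counts are reads per island, as the authors tallied them for ChIP and for input once duplicates were dropped. By the titles of the lists, windows of 200 bp, gaps of 400 bp and a false discovery rate of 0.001 were set. The lists have no header, and columns were read by the layout of that caller. The authors' p-value, fold and false discovery rate, which are their own comparison of ChIP with input, were not used.

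Distances, runs and counts were obtained in Python 3.11.15 (scipy 1.17.1, pandas 2.3.3, numpy 2.4.6, and matplotlib 3.10.9 for plots). The computations were tested on simulated data. Shares have Wilson intervals and ratios of counts exact intervals. Depth limits single islands: the median remote island had 55 ChIP and 27 input reads.

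The islands and the named regions were chosen with earlier results of these data known. Named were the 10 remote MT islands with the most ChIP reads, the 5 longest, the 5 with the highest ratio at 10 or more input reads, the 5 farthest from WT and the 5 longest runs, with ties broken by ChIP reads. Alternatives were limits of 5000, 20000 and 50000 bp, minimum reads, ratio and length in both lists, autosomes alone and classes of length. Selection at the median ratio of each list, equal list sizes and the comparison beyond 200000 bp were added after seeing the data. No p-value was computed, since 1 mouse per genotype was analysed here.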

Additional observations from a re-analysis of the deposited data

How the results depend on the processing

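Of 72 recomputed values, 29 stayed close to the value reported, 40 moved and 3 fell on the other side of 1. Close means within 1.5 times for numbers of islands. For shares, medians and ratios it means within the 95% counting interval of the reported value, so small shifts count as moved. The interval had no width for the median length and for the ratio difference between remote and overlapping islands. Any change in these counted as moved, so the tally is not a measure of robustness. At limits of 5000, 20000 and 50000 bp the share of MT islands that were remote was 26.3, 11.6 and 4.62%. At 20000 bp there were 3290 remote MT islands, 1.19 times the WT number, with 59.5% in runs of 2 or more. At 50000 bp there were 1312, 1.06 times the WT number, with a median of 52 ChIP reads, 57.0% in runs and 23.9% of X islands remote. A wider limit keeps fewer islands by construction.

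With at least 50 ChIP reads in both lists, the ratio of remote MT to WT islands was 1.93 and 23.9% of MT islands were remote, with a median length of 2600 bp, 70 ChIP reads, 65.5% in runs and 27.2% (18.7 to 37.7) of X islands remote. The ratio beyond 200000 bp changed direction, from 0.720 to 1.58. With ChIP at least 2 times input, the ratio changed direction to 0.764 and was 0.497 beyond 200000 bp, with 24.0% remote, a median length of 1800 bp, 51 ChIP reads and 58.3% in runs. With lengths of at least 1000 bp the ratio was 1.35, the share 20.3% and the median 57 ChIP reads. With autosomes alone no value moved.

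Chosen after seeing the data, islands at or above the median ratio of their list gave a ratio of 1.20, and 0.937 beyond 200000 bp, with 32.6% remote, a median length of 1800 bp, 65.1% in runs and 43.5% of X islands remote. With as many MT as WT islands the ratio was 0.989, with an interval (0.949 to 1.03) that includes 1, and was 0.498 beyond 200000 bp, with 17.7% remote, a median length of 2200 bp, 59 ChIP reads and 56.9% in runs. The cause of these shifts was not tested.

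The median ChIP to input ratio of remote minus overlapping MT islands was -0.26 over all islands and -0.38, -0.28, -0.34 and -0.52 in the classes of length from short to long, always in the same direction. No paired analysis was possible because the libraries analysed here come from 1 mouse per genotype.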
